A study of Mus musculus with 5 samples.

Results

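Of 24563 genes measured, 472 separated tissue recovered after kidney bud transplantation from normal kidney at all 3 ages examined. In 452 of them the lower of the 2 transplants lay at least 4-fold above the highest of the 3 kidneys, which is 2.65% of the genes well above background in both transplants. In 20 the higher transplant lay at least 4-fold below the lowest kidney, which is 0.139% of the genes well above background in all kidneys. The genes higher in the transplants included brown fat and general adipocyte genes, macrophage genes, chemokines, complement components and connective tissue genes. No gene of the lists for proximal tubule, loop of Henle, distal tubule or collecting duct cells was among the 452. The genes lower in the transplants included Lhx1, a transcription factor of the early nephron and ureteric bud, and the replication gene Mcm10. Of the 17 genes on the cell cycle list, however, 0 were lower by this rule.

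The groups were tissue taken 2 weeks after transplantation of a kidney bud, tissue taken 4 weeks after transplantation, kidney of E13.5 embryos, kidney of newborns (P0) and kidney of 8-week-old adults. All were labelled as C57BL/6 mouse tissue, and each group had 1 array. A kidney bud is a condensed mass of cells, and the series' title attributes the condensation to mesenchymal cells. The buds' cell composition, the recipient animals, the transplantation site, the number of animals per sample and their sex are not stated in the labels used here. Ddx3y, a Y-linked gene, was well above background on every array except the P0 kidney, and Xist, the RNA of the inactive X chromosome, on every array except the 8-week kidney.

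The kidney forms when a branching ureteric bud, the future collecting duct, meets a mesenchyme whose nephron progenitors become podocytes and tubules. Brown adipocytes burn lipid for heat through the mitochondrial uncoupling protein UCP1, white adipocytes store triglyceride, and both kinds of fat occur around the kidney in mice. Macrophages clear debris, make chemokines and much of the tissue's C1q, and are common in grafted and in injured tissue.

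A level is given here as log2 of the spot intensity over the 75th percentile of its array, so that 0 is the 75th percentile and 1 unit is a 2-fold difference. The gap of a gene is the fold between the lower transplant and the highest kidney, or between the lowest kidney and the higher transplant. For a spot not well above background, the gap was reckoned from its own value or from the dimmest well-measured spot of the array, whichever was brighter, and is written "at least". Such a spot is called at background. With 1 array per group no difference has a replicate check, and no test or p-value is given. Levels of different genes were not compared, because each probe has its own response.

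The 75th percentile lay between 1170.2 and 1720.1 intensity units, and 60.9% to 69.1% of the spots were well above background. Where a probe was spotted repeatedly, the spots' SD had medians of 0.058 to 0.0748 log2 units over the arrays, an error without any labelling or animal variation. Slide 1 carried the 2-week transplant with the E13.5 kidney, while slide 2 carried the 4-week transplant with the other kidneys. Comparing each transplant only with the kidneys of its own slide, 595 genes were higher and 29 were lower in both, a set that by construction holds all 452 and all 20. In bulk tissue, fewer cells of a type and less RNA per cell cannot be told apart.

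The 452 higher genes came from 17025 genes well above background in both transplants. Their median gap was 7.07-fold, 192 had a gap of at least 8-fold and 70 of at least 16-fold. In 204 the gene was also well above background in all 3 kidneys, and in 96 it was so in none. The gap was a bound in 115. Without the 8-week kidney 741 genes met the rule, and without the 2-week transplant 803. Background correction lowered the count to 118 by normexp, with a distorted fit on the E13.5 array, and to 279 from negative controls. Where the highest kidney value was well above background, it came from the 8-week kidney in 138 genes, the P0 kidney in 130 and the E13.5 kidney in 69. The 4-fold line itself divides neighbours that hardly differ. Just inside it stood Acsl6 (at least 4.02-fold), Myrip (4.03-fold) and Ifit1 (4.03-fold), and just outside it Ogn (3.99-fold), Pstpip1 (3.98-fold) and Sla (3.98-fold).

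The 56 gene lists covered cell types and functions of kidney, fat, immune, connective, muscle, nerve and adrenal tissue, with 789 matched genes. Of the 452 genes, 115 were on a list. Among list genes well above background in both transplants, the most were on the macrophage (15 of 23 genes), adipocyte (13 of 26), chemokine ligand (10 of 21), complement (9 of 20) and interferon-stimulated (9 of 26) lists. Of all 17025 genes well above background in both transplants, 2.65% met the same rule. For many lists the text also counts genes with both transplants above all kidneys by any amount. The share of all genes with that order was not reckoned, so whether such a count exceeds it is not known.

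**Figure D1:**
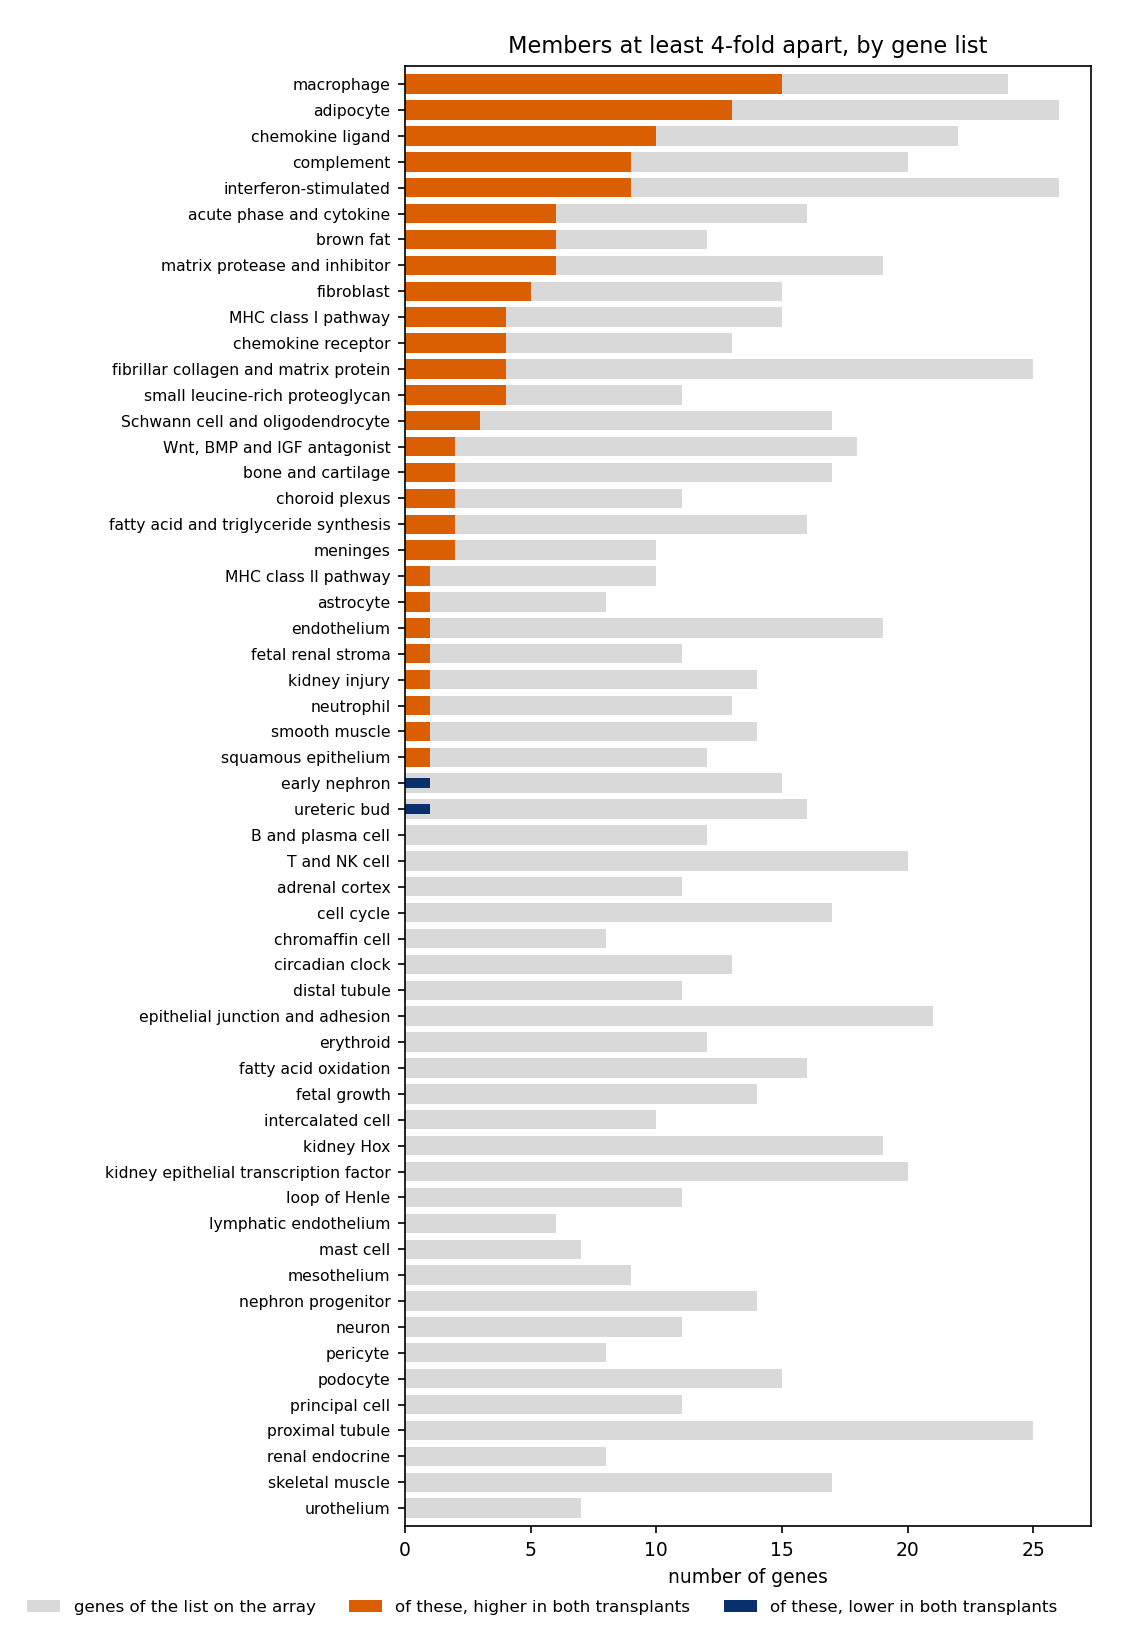
Number of genes on each of 56 gene lists (grey bars), with those at least 4-fold higher in both transplants than in all 3 kidneys (orange) and those at least 4-fold lower (blue). The macrophage list leads with 15 of 24 genes, 27 lists hold a higher gene, and the early nephron and ureteric bud lists hold the lower gene, Lhx1.

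Fat genes had the widest gaps. Cfd, the fat-derived complement factor D, stood at 6.27 and 7.81 in the 2-week and 4-week transplants, against -7.43, -8.02 and -5.89 in the E13.5, P0 and 8-week kidneys. It was not well above background in any kidney, and its gap was at least 3213-fold. Adipoq, the adipocyte hormone adiponectin, stood at 3.89 and 5.36 in the transplants, against -6.97, -7.55 and -7.06 in the kidneys. That gap was at least 619-fold, again with no kidney well above background.

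Of the 12 brown fat genes, 6 were at least 4-fold higher and 7 had both transplants above all kidneys. Ucp1, the uncoupling protein that defines brown and beige fat, stood at 4.20 and 4.73 in the transplants, against -7.65, -7.02 and -7.24 in the kidneys. Its gap was at least 763-fold, with all kidneys at background. Cox8b, a cytochrome c oxidase subunit of brown fat and muscle, stood at 5.27 and 6.87 in the transplants, against -5.13, -5.24 and -6.38 in the kidneys, a gap of 1357-fold. Cidea, a lipid droplet protein of brown fat, stood at 5.25 and 7.0 in the transplants, against -3.85, -4.27 and -5.32 in the kidneys, a gap of 549.7-fold. No kidney value of these genes came near a transplant value.

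The other members of the list were Slc36a2, an amino acid transporter (gap at least 143-fold), Dio2, which activates thyroid hormone (15.8-fold), and Otop1, a proton channel (at least 8.65-fold). A second probe of Otop1 showed no gap, with its lower transplant under its highest kidney. Cox7a1 stood at 4.18 and 5.76 in the transplants, against -1.93, 1.44 and 3.04 in the kidneys, so it separated the groups by less than 4-fold. Prdm16, Ppargc1a, Fabp3 and Ebf2 overlapped between transplants and kidneys, and Elovl3 was not well above background on any array.

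Of the 26 adipocyte genes, 13 were at least 4-fold higher and 20 had both transplants above all kidneys. Lipid droplet genes stood out, with gaps of 269-fold for Cidec, at least 177-fold for Plin1 and 50.4-fold for Plin4. Adig, an adipocyte gene also called adipogenin, had a gap of at least 235-fold. Mrap, an accessory protein of the melanocortin receptors (104-fold), Retn, the hormone resistin (93.6-fold), Thrsp, a regulator of lipid synthesis (71.7-fold), and Car3, a carbonic anhydrase (60.9-fold), were also among the 25 widest gaps.

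Pparg, the nuclear receptor that drives fat cell formation, stood at 1.8 and 3.55 in the transplants, against -2.05, -1.07 and -1.35 in the kidneys, a gap of 7.30-fold. Adrb3, the adrenergic receptor of fat, had a gap of 14.5-fold, and Acvr1c, an activin receptor of fat, one of at least 29.0-fold. Some lipid enzymes were also well above background in every kidney. The lipases Lipe and Pnpla2 had both transplants above all kidneys, by 3.69-fold and 1.38-fold. Lpl, Gpd1, Dgat2, Lpin1 and the glycerol channel Aqp7 overlapped, with an 8-week kidney value above the 2-week transplant value.

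Lipid enzymes outside the fat lists gave few members. Of 16 fatty acid and triglyceride synthesis genes, Scd1, the stearoyl-CoA desaturase (4.95-fold), and Pnpla3, a lipase-like protein (5.58-fold), met the rule. A second probe of Pnpla3, at background in every kidney, gave a gap of at least 0.31 log2 units. None of 16 fatty acid oxidation genes met the rule. Their medians were 0.78 and 2.27 in the transplants, against -0.57, 0.40 and 4.56 in the E13.5, P0 and 8-week kidneys. Over the adipocyte list the median difference between transplants and kidneys was 4.24 log2 units and over the brown fat list 4.23, where the median over all genes was -0.16.

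**Figure D2:**
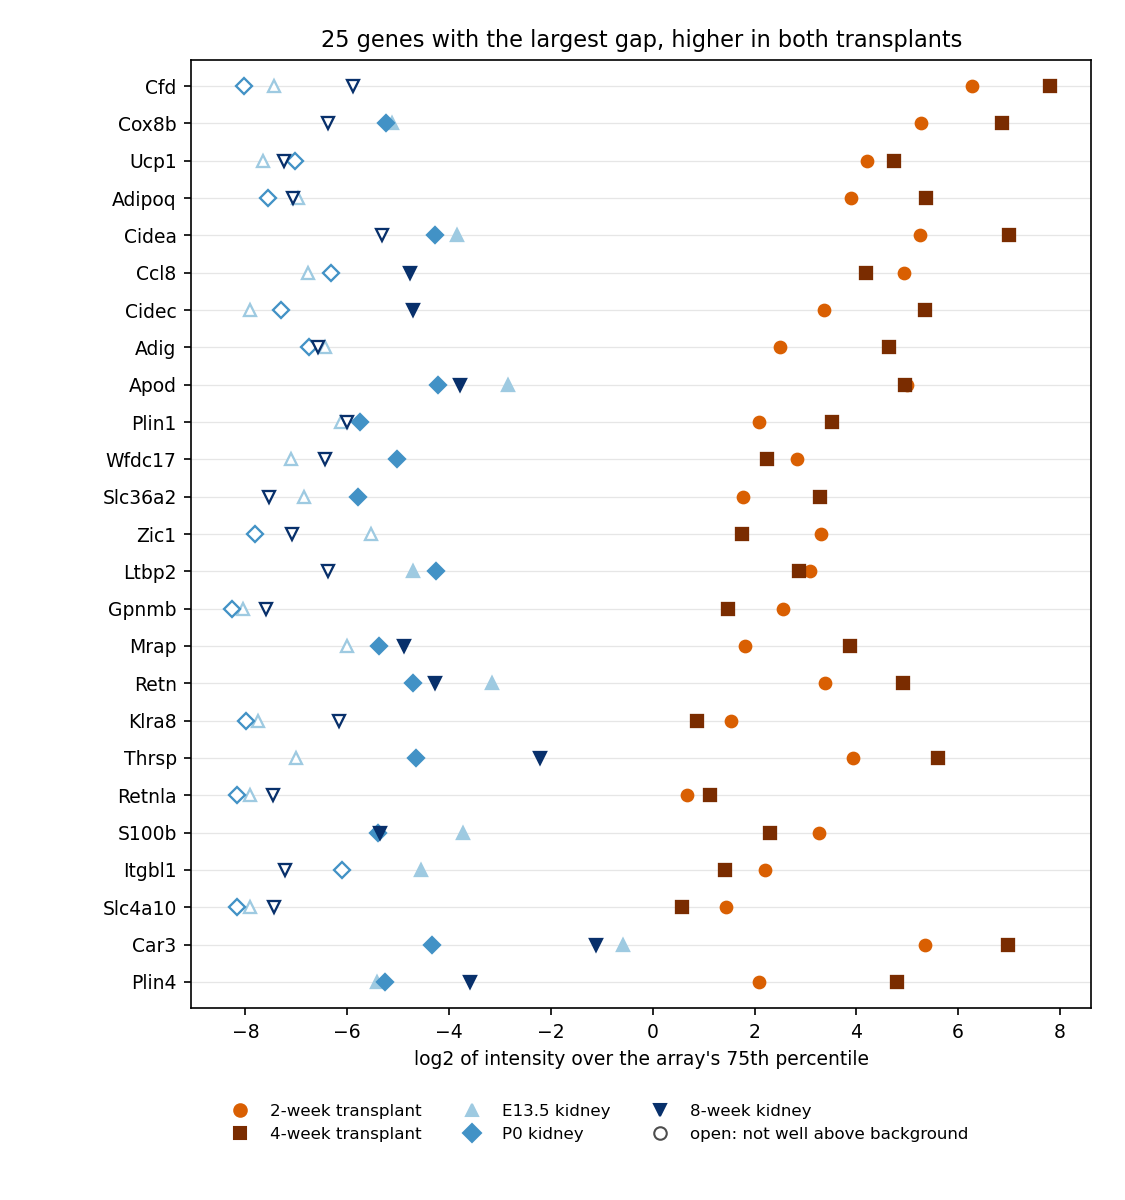
Levels of the 25 genes with the widest gap on each of the 5 arrays, on the x axis as log2 of intensity over the array's 75th percentile; open symbols mark spots not well above background. Both transplants lie to the right of all 3 kidneys for every gene, from Cfd (at least 3213-fold) down to Plin4 (50.4-fold).

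Macrophage genes formed the largest immune group. Lyz2, the lysozyme of macrophages and neutrophils, stood at 3.37 and 2.23 in the transplants, against -4.82, -2.69 and -2.94 in the kidneys, a gap of 30.1-fold. Adgre1, which encodes the macrophage antigen F4/80, stood at 2.30 and 1.45 in the transplants, against -2.32, -1.52 and -2.28 in the kidneys, a gap of 7.86-fold. Cd68, a lysosomal protein of macrophages, had a gap of 9.73-fold. In each of these the kidneys were well above background and still lay clear of the transplants.

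Receptors of tissue and lipid-handling macrophages had some of the wider gaps. Gpnmb, a glycoprotein of phagocytes full of lysosomes, stood at 2.55 and 1.47 in the transplants, against -8.05, -8.26 and -7.60 in the kidneys. The kidneys were at background and the gap was at least 116-fold. Trem2, a lipid-sensing receptor, had a gap of 22.8-fold, and its adaptor Tyrobp one of 7.91-fold. Retnla, a secreted protein of alternatively activated macrophages, stood at 0.68 and 1.12 in the transplants and at background in every kidney, a gap of at least 66.8-fold. The lectins Clec10a, Clec7a and Mrc1 had gaps of 15.5-fold, 8.21-fold and 4.72-fold.

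Other macrophage genes lay closer together or overlapped. Csf1r, the receptor for the macrophage growth factor, stood at 4.77 and 4.22 in the transplants, against 1.40, 2.14 and 3.70 in the kidneys, a gap of 1.43-fold. Folr2 and Cd5l overlapped with the kidneys, and Cd163 was not well above background on any array. Among other blood cells, none of 20 T and NK cell genes, 12 B and plasma cell genes or 7 mast cell genes met the rule. Cd8a, Cd8b1 and Cd27 of the T cell list were not well above background on any array. Of 13 neutrophil genes, Il1b, the cytokine interleukin 1 beta, met it at 8.12-fold, while the granule genes Ngp, Ltf and Mmp8 overlapped with the P0 kidney.

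The chemokines that attract monocytes went with the macrophage genes. Ccl8 stood at 4.94 and 4.18 in the transplants, against -6.78, -6.32 and -4.77 in the kidneys, a gap of 495-fold. Ccl2, the main ligand of the monocyte receptor CCR2, stood at 0.62 and -0.09 in the transplants, against -3.60, -4.37 and -3.91 in the kidneys, a gap of 11.4-fold. Its receptor gene Ccr2 had a gap of 5.32-fold. The 10 ligands of the list that met the rule were Ccl2, Ccl5, Ccl6, Ccl7, Ccl8, Ccl9, Ccl12, Ccl17, Cxcl9 and Cxcl10, with gaps from at least 4.56-fold to 495-fold. Beyond the list, and named after their values were seen, Ccl3 (8.77-fold), Ccl4 (at least 10.2-fold) and Cxcl5 (at least 5.58-fold) met it too. Among the receptors, Ccr7 and the endothelial decoy receptor Ackr1 also met the rule.

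Some ligands of the kidney itself behaved otherwise. Ccl28 stood at -4.89 and -5.04 in the transplants, against -0.54 in the 8-week kidney, and was at background in the younger kidneys. Cxcl12, which mesenchyme and stroma make, overlapped, with 5.48 and 4.86 in the transplants against 4.49, 3.78 and 5.60 in the kidneys.

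Of 20 complement genes, 9 were at least 4-fold higher, where 2.65% of all genes well above background in both transplants were. In 17 both transplants lay above all kidneys by any amount, a count without a share over all genes beside it. C1qa stood at 3.1 and 2.65 in the transplants, against -2.18, -0.59 and -1.18 in the kidneys, a gap of 9.48-fold. C1qb (8.99-fold) and C1qc (7.58-fold), which form C1q with it, and the C1 proteases C1ra (5.39-fold) and C1s1 (4.18-fold) followed. C3, the central component, stood at 4.44 and 6.33 in the transplants, against -4.05, -1.36 and 0.74 in the kidneys, a gap of 13.0-fold. The inhibitor Serping1, the stabiliser properdin (Cfp) and the receptor C3ar1 made up the 9. C4b (3.47-fold) and C2 (1.31-fold) of the classical pathway stayed under the line, and Cfb was highest in the 8-week kidney.

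None of the interferon-stimulated genes on the list had a gap of 8-fold. Of 26 genes, 23 had both transplants above all kidneys, an order whose share over all genes is not known. By at least 4-fold 9 did, where 2.65% of all genes well above background in both transplants did. Those 9 became 6 with quantile normalization and 4 with the array median. Xaf1 was among them at 5.55-fold, but its second probe, well above background on all 5 arrays, gave a gap of -5.23 log2 units. Ifit1, an antiviral RNA-binding protein, stood at -1.54 and -1.25 in the transplants, against -6.90, -4.69 and -3.55 in the kidneys. Mx1, a dynamin-like antiviral protein, had a gap of at least 5.77-fold and Gbp2, a guanylate-binding protein, one of 5.76-fold. Stat2 and Rsad2 separated by less than 2-fold, and Ifit2, Ifit3 and Ifi44 overlapped with the kidneys.

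Antigen presentation genes gave fewer members, and here too the share of all genes with both transplants above all kidneys is not known. Of 15 MHC class I pathway genes, 14 had both transplants above all kidneys, and H2-M3, Tap1, Psmb8 and Psmb9 met the 4-fold rule at 4.23-fold to 5.34-fold. Those 4 became 2 with the array median and 7 in the authors' deposited table. The gene without a gap was H2-Q4, highest on the 4-week array but at 3.85 in the 2-week transplant, against 4.67 in the E13.5 kidney. Of 10 class II genes, H2-Aa met the rule at 5.31-fold. The class I list had medians of 3.23 and 3.27 in the transplants, against -1.96, 0.31 and 1.62 in the kidneys.

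**Figure D3:**
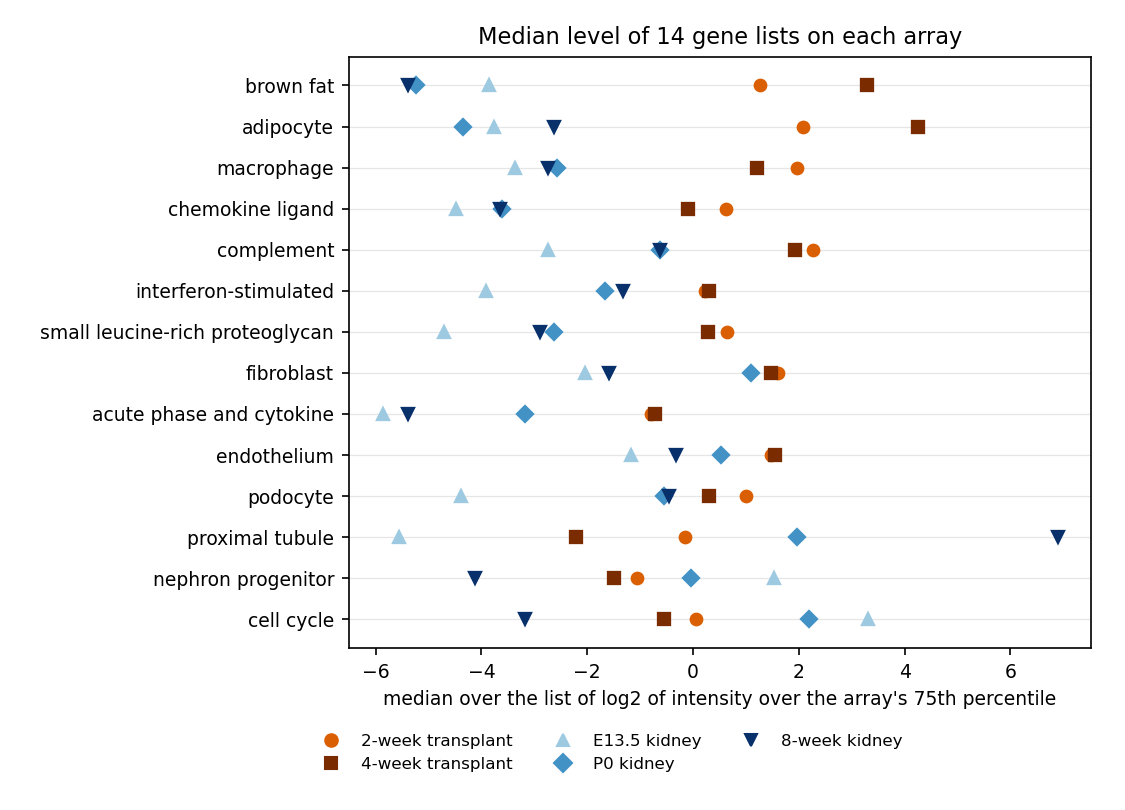
Median level over 14 gene lists on each array, on the x axis as log2 of intensity over the array's 75th percentile. The 2 transplants lie above the 3 kidneys in the fat, macrophage, chemokine, complement and interferon lists, and between or below kidney values in the proximal tubule, nephron progenitor and cell cycle lists.

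Promoters were read for the members because several lists, interferon-stimulated and acute phase genes among others, held many of them. RefSeq promoters on GRCm38.p6, from 250 bases before to 50 bases after the start, matched 317 of the 452 higher genes and 16 of the 20 lower genes, and 9 motifs were searched on both strands with N for any base. Of these, the 250 bases before the start are shown for 5 members in which a motif common among them was found. Capitals mark the interferon-stimulated response element (GAAA, any 2 bases, GAAA) in Ifit1 at chr19:34640639-34640888 (plus strand) and Cxcl10 at chr5:92348890-92349139 (minus strand). They mark GAGGAAGT, a site of the myeloid factor PU.1, in C1qc at chr4:136892915-136893164 (minus strand). They mark TTGCNNAA, a site of the C/EBP factors, in C3 at chr17:57228137-57228386 and Saa3 at chr7:46715677-46715926 (both minus strand).
Ifit1: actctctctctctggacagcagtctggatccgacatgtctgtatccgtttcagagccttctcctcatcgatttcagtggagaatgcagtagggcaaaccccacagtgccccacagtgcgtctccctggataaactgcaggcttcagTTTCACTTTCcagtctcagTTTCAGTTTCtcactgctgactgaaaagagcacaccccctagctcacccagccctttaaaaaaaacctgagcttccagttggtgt
Cxcl10: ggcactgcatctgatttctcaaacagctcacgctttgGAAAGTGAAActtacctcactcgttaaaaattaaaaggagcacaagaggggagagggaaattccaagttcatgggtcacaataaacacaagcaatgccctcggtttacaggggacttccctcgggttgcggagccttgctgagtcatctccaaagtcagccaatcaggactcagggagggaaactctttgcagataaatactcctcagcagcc
C1qc: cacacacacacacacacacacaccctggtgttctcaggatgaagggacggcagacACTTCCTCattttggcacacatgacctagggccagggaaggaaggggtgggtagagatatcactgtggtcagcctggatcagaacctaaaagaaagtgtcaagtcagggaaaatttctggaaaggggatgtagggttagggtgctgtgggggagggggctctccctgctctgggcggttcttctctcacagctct
C3: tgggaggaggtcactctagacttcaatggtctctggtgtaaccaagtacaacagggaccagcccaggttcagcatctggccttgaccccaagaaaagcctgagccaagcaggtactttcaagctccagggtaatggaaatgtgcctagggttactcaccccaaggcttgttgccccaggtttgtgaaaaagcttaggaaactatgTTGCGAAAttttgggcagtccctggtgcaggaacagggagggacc
Saa3: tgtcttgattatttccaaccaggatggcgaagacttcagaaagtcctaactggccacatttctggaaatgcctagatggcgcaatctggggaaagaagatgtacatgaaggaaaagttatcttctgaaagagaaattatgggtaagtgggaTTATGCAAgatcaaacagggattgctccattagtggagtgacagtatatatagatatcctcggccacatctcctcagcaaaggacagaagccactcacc
In Ifit1 the matches began 104 and 85 bases before the start, in Cxcl10 213, in C1qc 195, in C3 45 and in Saa3 99. Shares are of genes with a promoter, and a gene counted where any of its promoters matched. The higher members were set against 12763 genes well above background in both transplants and against all 27025 genes. The interferon-stimulated response element was present in 9.46% of the higher members, against 3.87% and 3.99% of these. It was in 3 of 5 matched interferon-stimulated members. GAGGAAGT was in 10.4% of the higher members, against 3.62% and 3.69%. Among matched members it was in 2 of 12 macrophage genes and 1 of 7 complement genes. TTGCNNAA was in 19.6%, against 1365 of the 12763 and 12.2% of all genes, and in 3 of 4 matched acute phase members. The AP-1 site TGANTCA was in 15.1%, against 6.90% and 8.97%.

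TATAAA, the TATA box, was in 19.9% of the higher members, against 10.5% and 15.7%. An NF-kB site (GGG, any 2 bases, TTTCC) was in 3.79%, against 2.05% and 1.89%. TTCCNNGAA, a STAT site, was in 5.99%, against 5.5% and 5.6%, and TGACGTCA, the cAMP response element, in 2.21%, against 3.19% and 2.03%. The PPAR direct repeat (AGGNCA, any base, AGGNCA) was in 0.315%, against 0.368% and 0.451%, and in none of the 10 adipocyte members matched. The members' promoters had a median GC content of 51.8%, against 59.7% in genes well above background in both transplants and 52.8% in all, and the part of base composition in these shares was not tested. Matches of different motifs may overlap, and a match says only that these letters occur there.

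Of 11 small leucine-rich proteoglycan genes, 4 were at least 4-fold higher and 8 had both transplants above all kidneys. Dcn, the collagen-binding proteoglycan decorin, stood at 7.51 and 7.14 in the transplants, against 2.90, 3.73 and 2.45 in the kidneys, a gap of 10.6-fold. Lum stood at 6.22 and 5.52 in the transplants, against 1.42, 0.30 and -7.13 in the kidneys, a gap of 17.1-fold, and Fmod had one of 19.2-fold. Omd, osteomodulin, had a gap of 5.06-fold. Of 25 collagen and matrix genes, Col5a3, Col8a1, Efemp1 and Mfap5 met the rule, led by Col5a3 at 19.4-fold. In 20 both transplants lay above all kidneys by any amount, a count without a share over all genes beside it. Col1a1, Col1a2 and Col3a1 had both transplants above all kidneys by less than 4-fold.

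Of 15 fibroblast genes 5 met the rule, and of 19 matrix protease and inhibitor genes 6. Dpt, dermatopontin of skin and fascia, stood at 1.41 and -0.33 in the transplants and at background in every kidney, a gap of at least 33.2-fold. Clec3b, the plasminogen-binding protein tetranectin, had a gap of at least 29.8-fold in the transplants, with the 8-week kidney at background. Pi16 (7.80-fold), Gsn (5.58-fold) and Cilp (15.3-fold) were the other fibroblast members. Mmp3, the protease stromelysin, stood at -0.28 and 0.94 in the transplants and at background in every kidney, a gap of at least 34.2-fold. Timp1, an inhibitor of matrix proteases, had a gap of 4.30-fold.

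Several stromal genes beyond the lists also met the rule. Ltbp2, a microfibril protein, stood at 3.09 and 2.88 in the transplants, against -4.71, -4.25 and -6.38 in the kidneys, a gap of 141-fold. Apod, a lipid-binding apolipoprotein, stood at 5.00 and 4.95 in the transplants, against -2.84, -4.22 and -3.79 in the kidneys, a gap of 221-fold. A second probe of Apod was at background in 1 transplant and in every kidney. Chosen after their values were seen, Mgp, an inhibitor of calcification, had a gap of 11.5-fold and Apoe, a lipid carrier that macrophages make, one of 9.13-fold. On the list of 18 Wnt, BMP and IGF antagonist genes, 2 met the rule. Sfrp4, a secreted Wnt antagonist, had a gap of 18.9-fold, and Igfbp6, which binds insulin-like growth factors, one of 5.58-fold.

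Acute phase genes were another higher group, at 6 of 16. Hp, the hemoglobin-binding protein haptoglobin, stood at 4.09 and 5.69 in the transplants, against -3.50, -1.0 and -4.44 in the kidneys, a gap of 34.0-fold. Saa3, an amyloid of inflamed tissue and fat, stood at 0.54 and -0.64 in the transplants and at background in every kidney, a gap of at least 26.8-fold. Steap4 (at least 22.0-fold), Orm1 (at least 7.81-fold), Il6 (at least 7.05-fold) and the cytokine receptor Osmr (5.54-fold) completed it. Of 14 kidney injury genes 1, Timp1, met the rule and 7 had both transplants above all kidneys. The injury genes Havcr1 and Lcn2 did not meet the rule. Havcr1, which encodes the tubular injury marker KIM-1, stood at -5.34 and -5.48 in the transplants, against 0.83 in the 8-week kidney, and Lcn2 had a gap under 2-fold. Of 19 endothelial genes, 7 had both transplants above all kidneys. Vwf, the von Willebrand clotting factor, met the rule at 9.42-fold, but its second probe, at background in every kidney, gave a gap of at least 0.29 log2 units.

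Of 17 Schwann cell and oligodendrocyte genes 3 met the rule, and of 8 astrocyte genes 1. S100b, a calcium-binding protein of glia that fat also makes, stood at 3.26 and 2.30 in the transplants, against -3.72, -5.40 and -5.36 in the kidneys, a gap of 64.9-fold. Gfap, the intermediate filament of astrocytes, stood at 2.05 and -2.18 in the transplants and at background in every kidney, a gap of at least 9.18-fold. Of its other probes, 1 gave a gap of at least 1.99 log2 units and 1 was at background in a transplant and in every kidney. Bcan, a proteoglycan of brain matrix, chosen after its values were seen like Mlc1, had a gap of at least 49.9-fold.

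Of 10 meningeal genes 2 met the rule and no other had both transplants above all kidneys, and of 11 choroid plexus genes 2 met it and 4 had both above. Ptgds, the prostaglandin D synthase of meninges, stood at 5.79 and 4.51 in the transplants, against -4.50, 0.05 and 0.64 in the kidneys, a gap of 14.6-fold. Gjb6, a gap junction protein, had a gap of 42.9-fold, and Ecrg4, a secreted peptide precursor of choroid plexus, one of 20.6-fold. Ttr, the thyroxine carrier of choroid plexus and liver, stood at -0.52 and 7.86 in the transplants, against -7.77, -2.99 and -3.40 in the kidneys, a gap of 5.54-fold. Of 11 neuronal genes 0 met the rule, though 5 had both transplants above all kidneys, 3 of them by at least 2-fold. Olig2, Aqp4 and Aldh1l1 of the glial lists did not separate the groups.

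Of 17 bone and cartilage genes 2 met the rule and 7 had both transplants above all kidneys. Comp, a cartilage and tendon matrix protein, stood at 0.94 and 0.83 in the transplants, against -5.11, -5.27 and -4.18 in the kidneys, a gap of 32.3-fold. Ibsp, the bone sialoprotein, stood at 0.55 and -3.21 in the transplants and at background in every kidney, a gap of at least 4.51-fold. A second probe of Ibsp, at background in every kidney, gave a gap of at least 0.66 log2 units. The osteocalcin genes Bglap2 (5.47-fold) and Bglap3 (7.46-fold), named after their values were seen, are near-identical copies whose probes may share targets. Col2a1 and Col9a1, collagens of cartilage, were instead lower in both transplants than in the E13.5 and P0 kidneys.

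Several gene families, grouped after the values were seen, had many members. Of 16 Klra genes on the array, natural killer cell receptors of the Ly49 family, 9 met the rule with gaps from at least 4.62-fold to at least 75.9-fold. Of 11 Mup genes, major urinary proteins that liver and some other tissues make, 8 did, with gaps from 4.56-fold to 47.2-fold. Both families consist of near-identical copies, and which copies were present is uncertain. Of the 20 genes on the T and NK cell list, 0 met the rule. Other probes of the Klra members were mixed, with gaps from -0.81 log2 units for one of Klra7 to 5.89 for one of Klra8. The lectin receptors of the Clec4 family gave 6 of 11 genes, the Pira receptors of myeloid cells 4 of 5, and the Ms4a genes 5 of 21. Zic1, a transcription factor of brain and dorsal mesoderm that marks classical brown fat in mice, stood at 3.30 and 1.76 in the transplants and at background in every kidney. Its gap was at least 141-fold, though its second probe gave 0.31 log2 units, and Zic2, Zic4 and Zic5 met the rule as well.

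The nephron lists supplied no member to the higher set. Of 15 podocyte genes, 7 had both transplants above all kidneys, and Synpo, Ptpro and Plce1 did so by at least 2-fold. Nphs1, the slit diaphragm protein nephrin, stood at -0.33 and -1.16 in the transplants, against -5.23, -2.16 and -1.40 in the kidneys. Both transplants lay above every kidney. Wt1, which podocytes share with nephron progenitors, was instead highest in the E13.5 kidney. The 25 proximal tubule genes had medians of -0.15 and -2.22 in the transplants, against -5.55, 1.97 and 6.89 in the kidneys. Of the tubule transporters, Slc34a1, the phosphate transporter, stood at 0.48 and -2.22 in the transplants, against -7.54, 3.39 and 7.24 in the kidneys.

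The kidneys differed strongly among themselves in several of these lists. Tubule genes were low in the E13.5 kidney and high in the 8-week kidney, while nephron progenitor and cell cycle genes ran the other way, and the transplants' medians fell between kidney ages. The nephron progenitor list had medians of -1.05 and -1.50 in the transplants, against 1.54, -0.03 and -4.13 in the kidneys. The cell cycle list had medians of 0.05 and -0.55 in the transplants, against 3.31, 2.20 and -3.17 in the kidneys.

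The 20 genes lower in both transplants came from 14340 genes well above background in all 3 kidneys, and their median gap was 4.86-fold. The count depended on each array: it was 212 without the 8-week kidney, 189 without the E13.5 kidney, 31 without the P0 kidney, 44 without the 2-week transplant and 34 without the 4-week transplant. With a background correction from negative controls it was 5. Lhx1, the homeobox gene needed for nephron and ureteric bud formation, stood at -5.62 and -5.39 in the transplants, against -0.51, -0.56 and -1.84 in the kidneys. Its gap of 11.7-fold was the widest of the 20, and its second probe gave 1.89 log2 units, just under 4-fold. Gpx6, a glutathione peroxidase, was at background in both transplants and stood at -3.09, -0.94 and 0.84 in the kidneys, a gap of at least 7.49-fold.

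The other 19 were on no list. Mcm10, a DNA replication factor, stood at -2.05 and -2.47 in the transplants, against 2.15, 0.36 and 1.38 in the kidneys, a gap of 5.30-fold. Depdc1b, a cell division gene, had a gap of 4.33-fold, whereas Mcm2, Mcm3 and Mcm5 of the cell cycle list lay between the P0 and the 8-week kidney. Ahcy, which hydrolyses S-adenosylhomocysteine, stood at -1.46 and -2.63 in the transplants, against 1.69, 0.75 and 3.78 in the kidneys, a gap of 4.63-fold, and its other probes gave 1.38 and 1.59 log2 units. Ak4, a mitochondrial adenylate kinase, had a gap of 4.01-fold, just inside the line.

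Others were Elovl2, which elongates polyunsaturated fatty acids (5.17-fold), Espn, an actin-bundling protein (6.59-fold), and Ovol1, an epithelial transcription factor (6.34-fold). The ganglioside synthase St8sia1 (4.81-fold), the muscle ubiquitin ligase Trim63 (4.79-fold), the phosphatase Dusp9 (4.47-fold) and the protocadherin Pcdh8 (5.24-fold) also met the rule. Dleu7, Zfp697, Dnph1, Sema4g, Ocm, Arhgef39 and the gene model C730027H18Rik, with gaps from 4.30-fold to 6.6-fold, complete the 20. The kidneys differed widely among themselves in several of these. Dusp9 stood at -4.33 and -5.55 in the transplants, against 1.08, -0.27 and -2.17 in the E13.5, P0 and 8-week kidneys. Espn and Trim63 had a second probe that met the rule. Just outside the line were Igf2bp1 (3.88-fold), Zfp963 (3.84-fold) and Mcoln3 (3.56-fold).

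**Figure D4:**
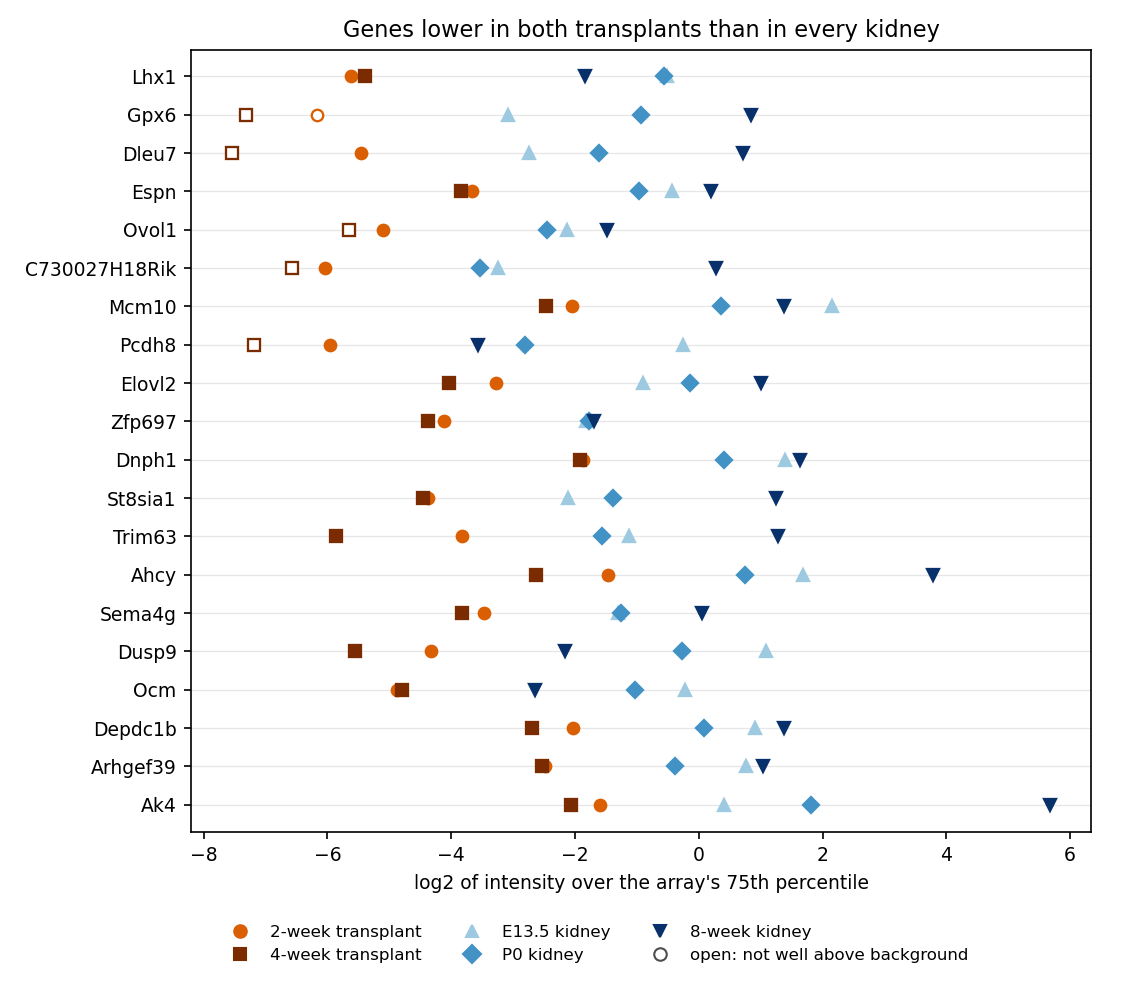
Levels of the genes lower in both transplants than in all 3 kidneys on each array, on the x axis as log2 of intensity over the array's 75th percentile; open symbols mark spots not well above background. Both transplants lie to the left of all 3 kidneys, with gaps from 11.7-fold for Lhx1 to 4.01-fold for Ak4.

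The 452 higher genes also differed between the transplants. At 4 weeks 74 were at least 2-fold higher than at 2 weeks and 48 at least 2-fold lower, where 7.83% and 5.14% of all genes well above background in both were so. Their median difference, 4-week minus 2-week, was -0.17 log2 units, against 0.00 over those genes. All 13 adipocyte members were at least 2-fold higher at 4 weeks, by a median of 1.66 log2 units with a range of 1.20 to 2.72. Of the 6 brown fat members 4 were, with Dio2 and Ucp1 within 2-fold. All 8 Mup members were higher as well, by a median of 2.01.

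Macrophage and chemokine members ran slightly the other way. Only Retnla of 15 macrophage members was higher at 4 weeks, and the median was -0.54 log2 units. The chemokine ligands had a median of -0.57, with only Cxcl9 of 10 higher at 4 weeks. These medians are small beside the gap to the kidneys, and on single arrays their error is unknown. Complement members had a median of -0.40, although C3 was 1.89 log2 units higher at 4 weeks.

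Some glial and bone members were much lower at 4 weeks, and the named extremes here were chosen after their values were seen. Gfap was 18.8-fold lower, Bglap2 16.8-fold, Bglap3 15.0-fold and Mlc1 7.18-fold. Ibsp differed by -3.76 log2 units. Other members of these lists moved less, with differences of -0.11 log2 units for Comp, -0.96 for S100b and 0.45 for Egr2, a transcription factor of myelinating Schwann cells. All 4 Zic members were at least 2-fold lower, with a median difference of -1.92 log2 units. At the other end, Ttr was 334-fold higher at 4 weeks, Mgst2, a glutathione transferase, 18.5-fold, and Il1b 5.83-fold.

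Genes of other tissues, most of them outside the 452, differed between the transplants too. The counts cover whole lists, and the choroid plexus list and the bone and cartilage list each hold 2 of the 452. All 11 adrenal cortex genes were at least 2-fold higher at 4 weeks, with a list median of 4.47, against -3.58 at 2 weeks and at most -3.18 in the kidneys. All 7 urothelium genes were at least 2-fold higher at 4 weeks, with medians of 0.69 at 4 weeks and -3.80 at 2 weeks, and so were 8 of 11 choroid plexus genes. Of 16 bone and cartilage genes well above background on any array, 10 were at least 2-fold lower at 4 weeks. Cyp11a1 and Cyp11b1, which make steroid hormones in the adrenal cortex, were at background at 2 weeks and in all 3 kidneys. The part of such tissue in the fat and other differences was not tested.

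**Figure D5:**
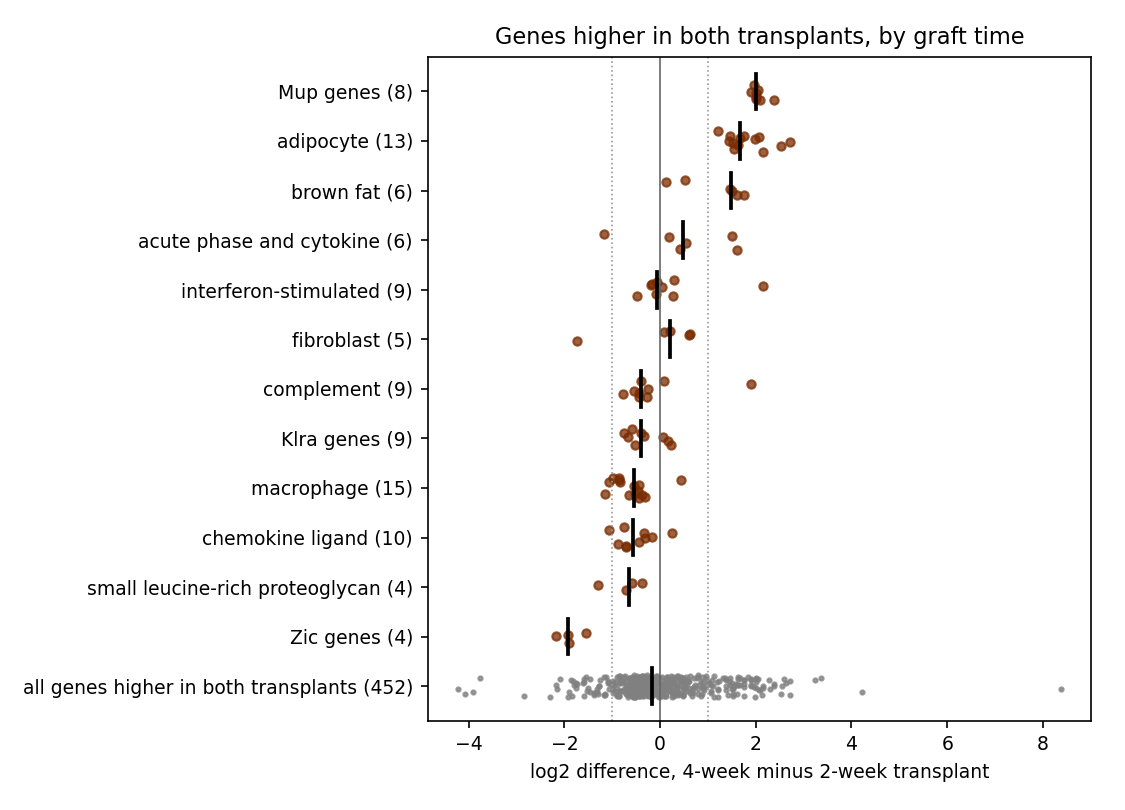
Difference between the 4-week and the 2-week transplant, in log2 units on the x axis, for members higher in both transplants, by gene list or family; each point is a gene, black bars are medians and the dotted lines mark 2-fold. The adipocyte and Mup members lie to the right, with medians of 1.66 and 2.01, and the Zic members to the left, at -1.92.

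Other probes of the same genes gave a mixed picture. Of the 452 genes, 138 had another probe. In 52 of these at least 1 other probe also met the rule, and in 40 every other probe did. Of the 173 other probes, 134 were well above background in both transplants. In 113 of those 134 the lower transplant lay above the highest kidney, and 55 reached 4-fold. The second probe of Cxcl10 was at background on every array, so its call rests on 1 probe, while the second probe of Retn gave 7.32 log2 units.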

How the data were processed

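RNA from 5 samples, 1 per group, was column-purified and Cy3-labelled from small amounts, per the labels' protocols. Groups were taken from sample titles. The deposited scanner files hold spot intensity, processed with Agilent Feature Extraction 10.7.3.1 per the submitters' processing notes, and, per the file headers, other columns that flag saturated, outlying and clearly measured (well above background) spots. No spot was saturated, and 447 outlier spots were left out. The authors' deposited gene table holds log2 values and served as an alternative. Of its values 99.6% lay within 0.01 of log2 intensity without a percentile shift, centred per gene to a median of 0.

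Each value is the log2 ratio of intensity to its array's 75th percentile, taken over the 43020 non-control spots. Of 39414 probes, 31781 were named by gene identifier through RefSeq (GRCm38.p6), 2026 by the authors' symbol, 19 by accession, and 5588 stayed unnamed. The probe with the highest mean stood for its gene. Higher genes had to be well above background in both transplants and lower genes in all 3 kidneys. On values as they stand, without that filter and the bounds, 555 and 23 genes met the rule. Genes named in the text were the 25 widest gaps in each direction without gene-model names, list genes and those next to the threshold, and the text marks exceptions. Lists and members were chosen with earlier results of these data known. Of the listed names 4 had no match. With 1 array per group no test was made, and the number of arrays limits the precision. Alternatives included normexp in limma 3.58.1 (R 4.3.3), quantile normalization, the array median, other folds and leaving out each array. Python 3.11.15 with pandas 2.3.3 and numpy 2.4.6 did the rest.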

Additional observations from a re-analysis of the deposited data

Results flagged for a closer look

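Of 5588 probes without a gene name, which no comparison above uses, 22 were at least 4-fold higher in both transplants than in all 3 kidneys and 0 were lower by that rule. The largest gap was 21.9-fold, for the probe A_55_P2056606, followed by 21.4-fold for A_55_P2045916 and 15.7-fold for A_55_P1999162. They are set out because they are signals in data outside the gene comparisons, and their transcripts were not looked for.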

How the results depend on the processing

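With 1 array per group, labelling and animal variation cannot be estimated. No paired analysis was possible because each group has 1 sample, so the groups share fewer than 2 replicate numbers. The 452 genes higher in both transplants became 118 with normexp (115 of them shared), 279 with normexp on negative controls, 204 when well above background on all 5 arrays, 1049 at 2-fold, 192 at 8-fold, 741 without the 8-week kidney, 803 without the 2-week transplant and 1355 on group means (1418 with slide as a block, chosen after seeing the data). For E13.5 normexp estimated a mean background of -992, while the other arrays had 20.7 to 27.5. The count was 411 with quantile normalization, 330 with the array median, 601 with the authors' deposited table and 403 with probe means. Chosen after seeing the data, it was 354 where every probe had to meet the rule, which members with 1 probe do by construction. Of the 138 members with another probe, every other probe met the rule in 40. The 20 lower genes became 5 with normexp on negative controls, 118 at 2-fold, 1 at 8-fold, 189 without the E13.5 kidney, 31 without the P0 kidney, 212 without the 8-week kidney, 44 without the 2-week transplant, 34 without the 4-week transplant and 382 on group means (370 with slide as a block, likewise). Dropping an array loosens the rule, and a stricter fold narrows it, and the cause of the other shifts was not tested. The 25 named higher genes were chosen for the widest gaps, 50.4-fold or more, so they do not stand for the other members. Of these 25, 22 stayed at 4-fold with normexp and all 25 under the 5 other scalings. Of 19 named lower genes, 9 did with normexp, 5 with negative controls, 19 with quantile normalization and with the array median, 13 in the authors' table and 16 with probe means, and none of either set turned its direction. The median difference over all genes, transplants minus kidneys, was -0.16, and lay between -0.50 with the array median and 0.00 in the authors' table.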

Other observations

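Genes of cell cycle inhibitors, chosen after their values were seen, also met the rule. Cdkn2b, which encodes p15, stood at 0.39 and -0.12 in the transplants, against -5.71, -4.15 and -3.27 in the kidneys, a gap of 8.90-fold. Cdkn2a, which encodes p16 and ARF, stood at 0.10 and -1.69 in the transplants and at background in every kidney, a gap of at least 12.9-fold, and its second probe was at background in 1 transplant and in every kidney. Epithelial and smooth muscle genes were few: Krt17, a keratin of squamous epithelium, had a gap of at least 7.68-fold, and Actg2, the enteric smooth muscle actin, one of 12.4-fold. Tnmd, a tendon and fat gene, had a gap of at least 15.7-fold and Kcnk3, a potassium channel that brown fat expresses, one of 13.7-fold.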
